A study of Mus musculus with 7 samples.

Results

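The Rad21 peak list of female mouse liver held 67228 peaks on autosomes 1 to 19, of 68656 peaks on all chromosomes and of 137323 peaks in the Rad21 and CTCF lists together. Members were all autosomal peaks of the Rad21 list, with no further selection. Chromatin came from livers of 8-week-old females of the outbred stock Crl:CD1(ICR), and no treatment or genetic change is given in the labels. The Rad21 antibody (Abcam Ab992) was used in 3 libraries. The deposited list is named as merged and is taken as 1 pool of their reads. It therefore has no replicates, and no SD or test between mice can be given. The source is labelled liver, with no cell sort given, so a peak cannot be assigned to hepatocytes or to the other cell types of the organ from the list alone. The intervals below are 95% Wilson intervals of shares and cover counting error only.

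Rad21 is the subunit that closes the ring of cohesin, the complex that holds sister chromatids together and extrudes loops of DNA in interphase. Cohesin is loaded and moves along chromatin, and it often stops where CTCF is bound to its motif with the motif pointing into the loop. In liver, as in other tissues, cohesin is also found at promoters and enhancers that lack CTCF, often together with lineage transcription factors.

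Sequences are given here for peaks of high fold, as examples only. The peak of highest fold was taken on each autosome, and the 5 highest that could be shown are given with 1 peak of median fold. Each line gives the 121 bases centred on the summit, on the plus strand of mm9 (NCBIM37). Capitals mark the core of the CTCF motif, searched as AGGNGGCNC on both strands.
Chromosome 14 peak, chr14:65768944-65769064: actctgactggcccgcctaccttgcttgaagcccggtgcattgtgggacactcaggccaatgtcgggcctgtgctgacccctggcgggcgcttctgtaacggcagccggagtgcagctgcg
Chromosome 13 peak, chr13:9846179-9846299: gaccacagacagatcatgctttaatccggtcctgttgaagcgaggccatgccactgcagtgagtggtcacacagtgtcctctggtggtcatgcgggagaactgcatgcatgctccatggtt
Chromosome 19 peak, chr19:23431904-23432024: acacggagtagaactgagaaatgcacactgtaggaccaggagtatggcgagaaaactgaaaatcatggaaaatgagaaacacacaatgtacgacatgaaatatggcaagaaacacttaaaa
Chromosome 2 peak, chr2:39228726-39228846: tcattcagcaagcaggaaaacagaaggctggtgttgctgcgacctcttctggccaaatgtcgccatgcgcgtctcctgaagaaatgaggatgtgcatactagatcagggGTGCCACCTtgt
Chromosome 7 peak, chr7:144670067-144670187: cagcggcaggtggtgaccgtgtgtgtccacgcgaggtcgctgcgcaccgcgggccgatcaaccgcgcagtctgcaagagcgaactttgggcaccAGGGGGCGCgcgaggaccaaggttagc
Chromosome 1 peak of median fold, chr1:181502084-181502204: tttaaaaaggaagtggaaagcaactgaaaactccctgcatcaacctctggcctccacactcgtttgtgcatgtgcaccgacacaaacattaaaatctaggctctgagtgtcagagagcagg

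The capitals appear in the windows of chromosome 2, where the word lies on the minus strand, and of chromosome 7, where it lies on the plus strand. The letters of the word were not in the other windows shown, which says only that this exact word was absent there. The chromosome 14 peak (chr14:65768815-65769266) was intergenic, 52061 bp upstream of the nearest protein-coding transcription start site (TSS), that of Extl3, and its fold was 33.6. The chromosome 13 peak (chr13:9845989-9846495) was intergenic, 32090 bp downstream of a Chrm3 TSS, with a fold of 32.9. The chromosome 19 peak (chr19:23431776-23432152) was in an intron of Mamdc2, 83597 bp from the TSS of Smc5, and had a fold of 32.8. The 24 bases in the middle of its window occurred 10 times in the autosomes and X together. The middle 24 bases of the other shown windows occurred 1 time each. The chromosome 19 window is thus repeated sequence and is not taken as a typical strong site. Copies missing from the assembly were not counted, and how far reads from other copies add to its fold was not tested.

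The chromosome 2 peak (chr2:39228559-39229045) and the chromosome 7 peak (chr7:144669869-144670391) were both intergenic, with folds of 32.7 and 32.7. Their nearest protein-coding TSSs were those of Ppp6c, 146815 bp away, and Glrx3, 40796 bp away. The chromosome 1 peak of median fold (chr1:181501728-181502293) was in an intron of Cnst and had a fold of 4.91. The highest peaks of the 19 autosomes had folds of 28.0 to 33.6. They lay in introns of Mamdc2, Hfm1 and Cacna2d2, in the 3′ UTR of Gja5 and otherwise between genes, and none was in a promoter. The most fragments at a summit, 1283, were at the highest peak of chromosome 15, 7914 bp upstream of a TSS of Eif4b.

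Widths, folds and q values described a list of many weak and few strong peaks. The width had a median of 418 bp (quartiles 298 and 537 bp) and ran from 195 to 2453 bp, and 3.04% of peaks were 1000 bp or wider (2.91 to 3.17%). Fold enrichment, the summit pileup over the local background as the peak caller gives it, had a median of 4.91 (quartiles 3.55 and 8.77) and ran from 1.71 to 33.6. A fold of at least 10 was reached by 14403 peaks (21.4%, 21.1 to 21.7%) and of at least 20 by 2904 peaks (4.32%, 4.17 to 4.48%). The −log10 q had a median of 15.5 (quartiles 7.50 and 48.2) and a highest value of 1401. Summits lay near the middle of peaks, at a median of 49.3% of the width, with quartiles of 41 and 57.4%.

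**Figure D1:**
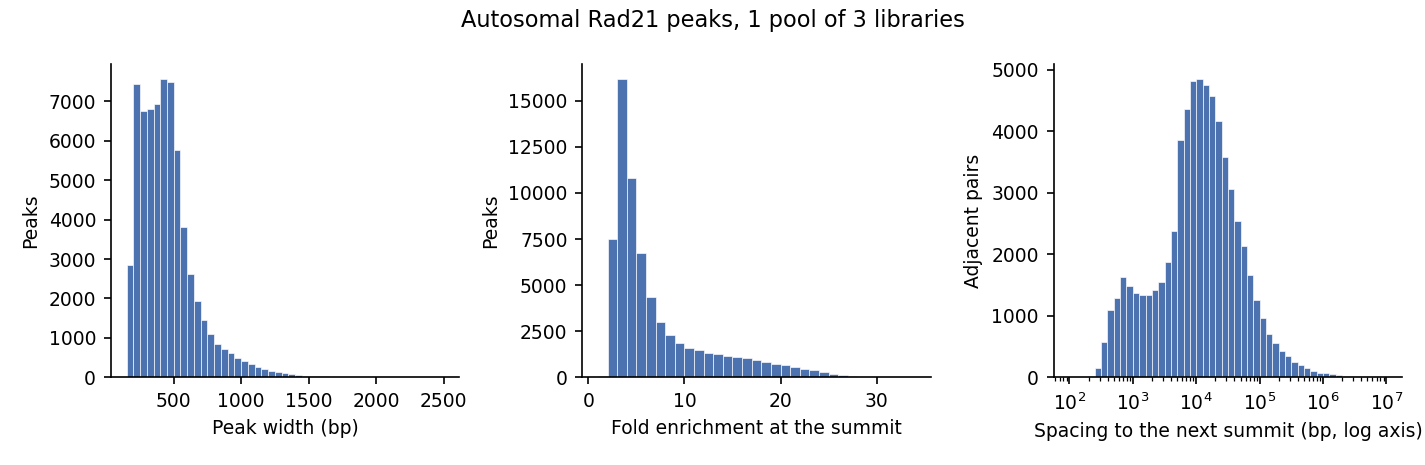
Histograms of the width (bp), the fold at the summit and the distance to the next summit (bp, log axis) of the autosomal Rad21 peaks. Widths are spread broadly around the median of 418 bp (quartiles 298 and 537 bp), and most peaks are below a fold of 10. The spacing has its main mode near its median of 11539 bp with a smaller shoulder under 1000 bp.

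Fold and p value together gave the number of fragments behind each summit. The peak caller computes the fold as the summit pileup plus 1 over the local background plus 1 and the p value from a Poisson distribution, and solving both gave a whole pileup for 67228 of 67228 peaks, to within 0.05 of a fragment. The median summit had 45 fragments (quartiles 30 and 86, lowest 14, highest 1283). A count of 45 has an exact Poisson interval of 32.8 to 60.2, which is the counting error behind a typical fold, whereas the chromosome 14 peak had 868 fragments (811 to 928). The local background was at its genome-wide minimum of 5.03 fragments at 11316 peaks (16.8%). Among 31900 peaks of under 60 fragments with a background above that minimum, 100% had a background that was a whole number of reads times 195 bp over 10 kb, to within 0.1 of a read. This minimum gives the number of reads in the pool only for an assumed genome size, which the sources used here do not state, so none is given.

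Rank correlations across the 67228 peaks, which come from one pool, were 0.947 between fold and −log10 q, 0.550 between fold and width, and 0.615 between pileup and local background. Peaks with near neighbours had lower folds at like pileups. Peaks without another summit within 5 kb (36699, 54.6%) had a median fold of 6.11, a median pileup of 46 and a median background of 6.40. With 3 or more other summits within 5 kb (1896 peaks, 2.82%), the median fold was 3.08, the median pileup 50.5 and the median background 15.5. The reads of neighbouring peaks, and those of the peak itself, enter the local background when it is taken from the ChIP itself. Their part in the folds was not tested. Fold and pileup can rank peaks differently. The highest peak of chromosome 15 had 1283 fragments, a background of 39.2 and a fold of 32.0. That of chromosome 19 had 480 fragments, a background of 13.7 and a fold of 32.8.

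Adjacent summits were a median of 11539 bp apart (quartiles 4690 and 27465 bp, 67209 adjacent pairs). Spacings under 1000 bp made up 9.31% (9.09 to 9.53%), and 45.5% were under 10000 bp (45.1 to 45.9%). At the other end, 6.01% of spacings were 100 kb or more. Folds of neighbours were almost unrelated at any distance, with rank correlations from -0.01 to 0.11 over the classes of spacing. In pairs under 1000 bp apart the stronger peak had a median fold of 4.62 and the weaker one 3.11. In pairs 100 kb or more apart these medians were 11.9 and 4.81.

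Summits were densest in windows with low folds and high backgrounds. The 100 kb window with the most summits, on chromosome 8 from 119780284, had 24 summits, of which 20 were in introns, and the only protein-coding gene there was 4933407C03Rik. A window of chromosome 14 from 26266052 also had 24 summits, 18 of them in introns, over Zmiz1, a co-regulator of transcription. The window of chromosome 9 from 45983587 had 23 summits and held Apoa1, Apoa4, Apoa5 and Apoc3, apolipoprotein genes expressed in liver, with Sik3 and Zfp259. A window of chromosome 11 from 79517836 had 23 summits and no protein-coding gene, and one of chromosome 5 from 66434129 had 22, of which 19 were in introns, over Rbm47, an RNA-binding protein. Other windows also had 22. In the first 5 windows the median folds were 3.04 to 3.39, and the median backgrounds ran from 14.5 fragments to 21 over Zmiz1.

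The longest stretches without a summit, among those of which most bases are sequenced, were poor in genes or held receptor families. Between summits at 45777346 and 50312637 on chromosome 10, 4.54 Mb held 2 protein-coding genes, the glutamate receptor gene Grik2 and Ascc3. On chromosome 7, 4.50 Mb from 7248427 held 41 protein-coding genes, of which 29 were vomeronasal receptors, and 4.35 Mb from 20550851 held 108, of which 64 were vomeronasal receptors. On chromosome 1, 3.90 Mb from 26743026 held 4 protein-coding genes, and 3.86 Mb from 114352794 held only Cntnap5a, a neuronal adhesion gene. Vomeronasal receptors detect pheromones. Only uniquely placed reads were kept, and the part of repeated sequence in these stretches was not tested.

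Promoters held far more summits than their share of the genome. With a promoter defined as the 1 kb on either side of any annotated TSS, 16353 summits were in promoters (24.3%, 24 to 24.7%), against 4.17% of autosomal bases, a ratio of 5.84. Intergenic summits numbered 23791 (35.4%, 35 to 35.8%) against 57.0% of bases, a ratio of 0.620. Introns held 24742 summits (36.8%, 36.4 to 37.2%), close to their 36.3% of bases. Coding exons outside promoters held 1086 summits, 1.53 times their share of bases, and 3′ UTRs held 842, 1.26 times their share. Per Mb this made 164 summits in promoters, 28.5 in introns and 17.4 between genes.

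**Figure D2:**
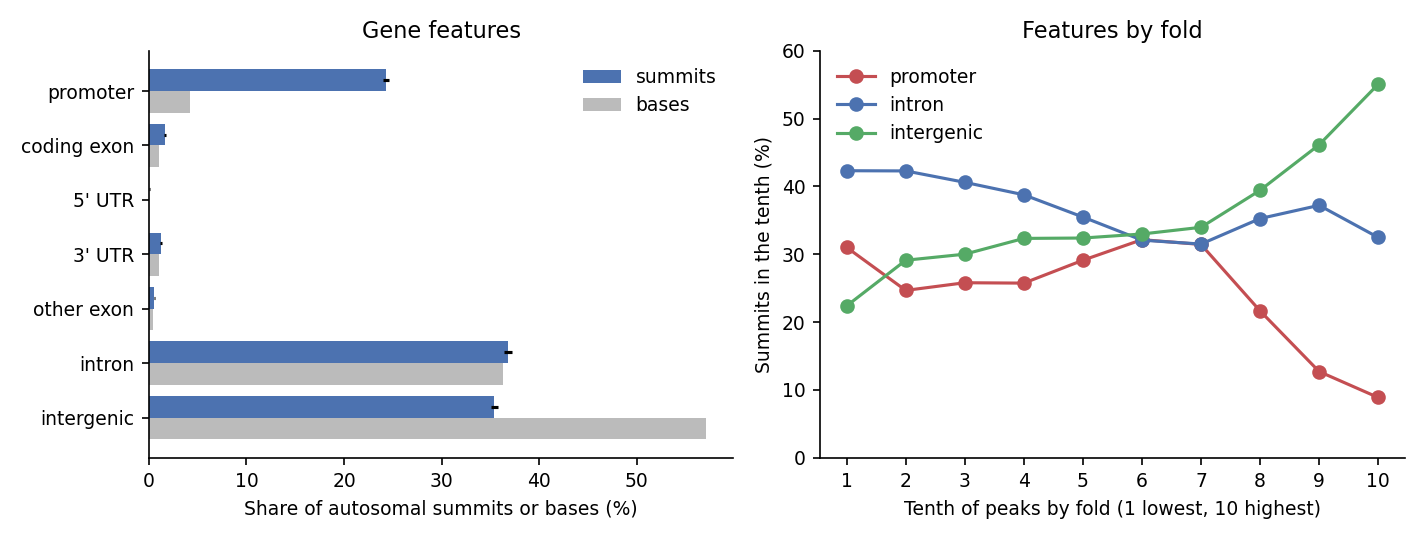
Left, the share (%) of the 67228 summits (with 95% Wilson intervals) and of autosomal bases in each gene feature. Right, the share (%) of summits in promoters, introns and intergenic sequence in each of 10 classes of peaks by fold: the promoter share falls from 32.2% in class 6 to 8.89% in class 10, and the intergenic share rises to 55.1%.

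Promoter peaks were wide and moderate, and intergenic peaks were narrower and higher in fold. The median width was 492 bp in promoters, 389 bp in introns and 418 bp between genes, and 9.58% of promoter peaks were 1000 bp or wider against 0.635% of intron peaks and 1.24% of intergenic peaks. The median fold was 4.57 in promoters (quartiles 3.43 and 6.40) and 5.79 between genes (3.83 and 11.8). The median pileups were both 48, while the median local background was 9.61 in promoters and 7.18 between genes. The 5 widest peaks, 2083 to 2453 bp, all had promoter summits. Of these, 4 lay within 1 kb of a TSS of Rreb1, Ptprk, Sntb1 or Fzd1, and the widest lay at an annotated non-coding TSS, 6343 bp upstream of Klf9. The folds of these 5 peaks were 4.11 to 5.94.

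The mix of features changed with fold. Peaks were split by fold into 10 classes of like size. In the highest class (folds of 15.7 to 33.6), 55.1% of summits were intergenic and 8.89% were in promoters. In the lowest class (1.71 to 2.96), 22.4% were intergenic and 31.0% in promoters. When peaks were ranked by summit pileup instead, the highest class had 49.7% intergenic and 13.9% promoter summits. In the lowest class by pileup, 37.9% were intergenic and 14.8% in promoters. The promoter share by pileup reached its maximum of 34.7% at pileups of 56 to 72. Intergenic summits thus outnumbered promoter summits in the highest class by either measure, whereas their order in the lowest class depended on the measure.

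Around protein-coding TSSs, summits were densest just downstream of the start. From 100 to 200 bp downstream there were 728 summits per Mb (3090 summits), and from 0 to 100 bp there were 609. In the 100 bp upstream there were 312, and at 1900 to 2000 bp downstream 35.9. Of the 15315 summits within 1 kb of a protein-coding TSS, 38.1% were upstream (37.3 to 38.8%). From 1 to 5 kb 48.7% of 8384 were upstream (47.7 to 49.8%), and from 5 to 50 kb 46.1% of 29725 were (45.6 to 46.7%). The median distance to the nearest protein-coding TSS was 11962 bp, and 89.8% of summits were within 100 kb of one (89.6 to 90.0%).

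**Figure D3:**
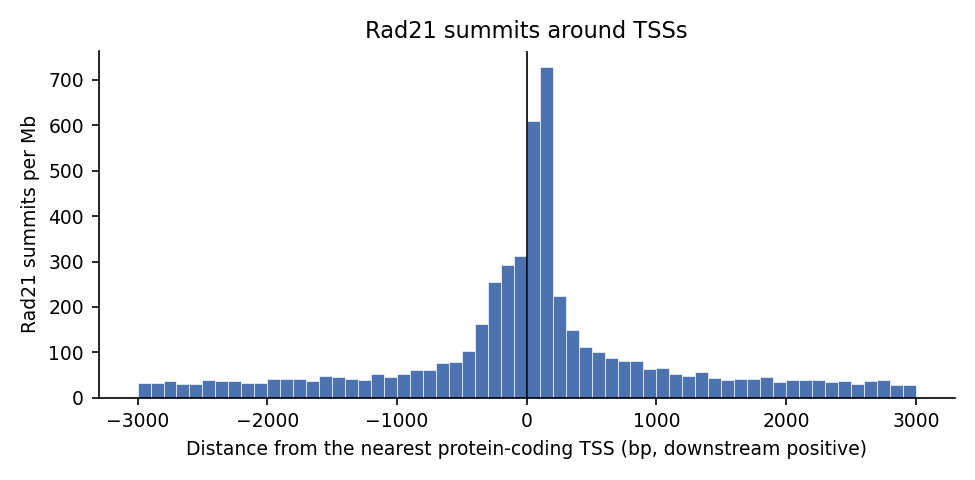
Rad21 summits per Mb of sequence (vertical axis) in bins of 100 bp by distance from the nearest protein-coding TSS (horizontal axis, bp, downstream positive). The highest bar, 728 per Mb, is 100 to 200 bp downstream, and the bar just upstream of the TSS is at 312.

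Of 21418 autosomal protein-coding genes, 11406 had a summit within 1 kb of a TSS (53.3%, 52.6 to 53.9%), and 16514 had one in the gene or within 10 kb (77.1%). LincRNA genes were close to this, with 618 of 1232 (50.2%, 47.4 to 52.9%), whereas 181 of 4055 pseudogenes had a promoter summit (4.46%, 3.87 to 5.14%). Only uniquely placed reads were kept, and its part in the low share of pseudogenes was not tested. The share of coding genes rose with gene length, from 23.5% of genes under 5 kb to 72.1% of genes of 50 to 100 kb. It was 53.3% for genes of 300 kb or more.

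Genes that define hepatocytes mostly had promoter summits, at low folds. Among enzymes of liver metabolism 19 of 20 did, and Tat, tyrosine aminotransferase, was the exception. Among hepatocyte transcription factors 18 of 20 did, the exceptions being Foxa2 and Onecut2. Of 23 annotated entries for 22 plasma protein genes (transferrin, Trf, is annotated 2 times with the same promoter peak), 16 did. These shares were 95% (76.4 to 99.1%), 90% (69.9 to 97.2%) and 69.6% (49.1 to 84.4%), and the interval of the plasma proteins holds the 53.3% of all coding genes. The median lengths were 18.7, 37.2 and 9.08 kb beside 15.5 kb over all coding genes. The median promoter folds were 3.79, 3.91 and 3.32, under the 5.39 of all coding genes with a promoter summit. Their median pileups were 50, 90.5 and 52.5 against 55, and their local backgrounds 12.7, 18 and 16.4 against 9.32.

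Single genes varied within these lists. The highest promoter fold among hepatocyte factors was 17.7 at Foxa3 (chr7:19608510-19609276, 567 fragments), followed by 14.7 at Cux2, a female-biased repressor in liver, and 8.68 at Nr1i2, the xenobiotic sensor PXR. Cebpa, a master regulator of hepatocyte genes, had 2.90 with 130 fragments. Among plasma proteins Apob, the protein of very low density lipoprotein, had 14.2 (chr12:7985146-7985756, 386 fragments, 935 bp from the TSS), while albumin (Alb) had 3.24 with 32 fragments, 22 bp from its TSS. Serpina1a, an antitrypsin gene with near-identical copies beside it, had no summit in the gene or within 10 kb, which is uncertain since only uniquely placed reads were kept. Among enzyme promoters the highest fold was 6.28 at Scd1, stearoyl-CoA desaturase, and Fasn, fatty acid synthase, had 5.94.

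The autosomal genes listed for cohesin and its partners, which leave out the X-linked subunit genes Smc1a and Stag2, had promoter summits in each case (13 of 13, 77.2 to 100%, from 14 symbols of which Wapl and Wapal name the same gene). Their median length was 45.4 kb, and the share was 53.3% over all coding genes and 68.5% over those of 20 to 50 kb. The folds ran from 2.84 at Nipbl, the loader, to 25.7 at Smc3, a core subunit of the ring (chr19:53674214-53674629, 397 fragments). Pds5b, which binds cohesin, had 19 with 371 fragments and Stag1, a subunit of the complex, 17 with 655. The folds were 14.1 at Pds5a and 9.54 at Ctcf. Rad21 itself had 3.27 with 23 fragments.

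Among markers of other liver cells, promoter summits ranged from 0 to 62.5% of a list, in short lists with wide intervals, beside 53.3% of all coding genes. The median lengths were 19.9 kb for Kupffer, 37.6 for endothelial, 38.4 for stellate and 7.86 for cholangiocyte markers. None of 8 Kupffer cell markers had one (0 to 32.4%), and Timd4, Cd5l, Clec4f and Emr1 had no summit in the gene or within 10 kb, where 77.1% of all coding genes had one. Among endothelial markers 5 of 8 had a promoter summit (30.6 to 86.3%, an interval that holds the share of all genes), with the highest fold, 21.1, at Clec4g. Stellate cell markers had 3 of 8, with 20.7 at Col1a1, a collagen gene, and cholangiocyte markers 2 of 7, with no summit within 10 kb of Krt7, Krt19, Epcam or Cldn4. Of genes of tissues that liver should lack, 3 of 8 neuron genes (13.7 to 69.4%, median length 50.5 kb) and 2 of 8 muscle genes (7.15 to 59.1%, 13.6 kb) had a promoter summit. The 5 promoter summits of those neuron and muscle genes were 758 to 981 bp from the gene's nearest annotated TSS, near the edge of the window. Their folds were 5.97 to 10.4. Such a TSS can lie inside the gene. At Rbfox3, on the minus strand from 118351074 to 118772911, the peak was at 118369013 to 118369660.

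Gene families differed in their share of promoter summits, beside 53.3% of all coding genes and 23.5% of those under 5 kb. Promoter summits were found at 4 of 1106 odorant receptor genes (0.362%, 0.141 to 0.926%) and 1 of 321 vomeronasal receptor genes (0.312%, 0.055 to 1.74%), whose median lengths were 0.961 and 1.08 kb. Only uniquely placed reads were kept, and how far this lowers the shares of families with similar copies was not tested. Coding genes with symbols of the ribosomal protein pattern, which also takes annotated copies such as Rpl21-ps14, had 80 of 142 (56.3%, 48.1 to 64.2%) at a median length of 2.18 kb, and the share over the ribosomal genes proper was not computed. Zinc finger genes named Zfp (14.6 kb) had 242 of 362 (66.9%, 61.8 to 71.5%). Of 40 Hox genes (4.08 kb), 8 had a promoter summit (20%, 10.5 to 34.8%), at a median fold of 13.4, and 36 of 40 had a summit in the gene or within 10 kb, beside the 77.1% of all coding genes. Keratins (6.99 kb) had 4 of 51 and beta-defensins (3.16 kb) 2 of 41.

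Peaks were more frequent on gene-dense autosomes. The 5 autosomes with the most protein-coding genes per Mb (7, 11, 19, 17 and 9) had 17814 peaks, or 33.5 per Mb, and 12.8 genes per Mb. The 5 with the fewest (16, 3, 1, 12 and 18) had 15425 peaks, or 23.8 per Mb, and 6.47 genes per Mb. The ratio of peak densities was 1.41 (counting interval 1.38 to 1.44). Gene density differed more than peak density, so there were 2.62 peaks per gene on gene-dense and 3.68 on gene-poor autosomes. Over the 19 autosomes, which share one pool, peaks and genes per Mb had a Spearman rho of 0.819 and a Pearson r of 0.762. Genes per Mb and GC content had a rho of 0.846, and GC content and peaks per Mb 0.863, so gene density and base composition cannot be told apart at this scale.

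**Figure D4:**
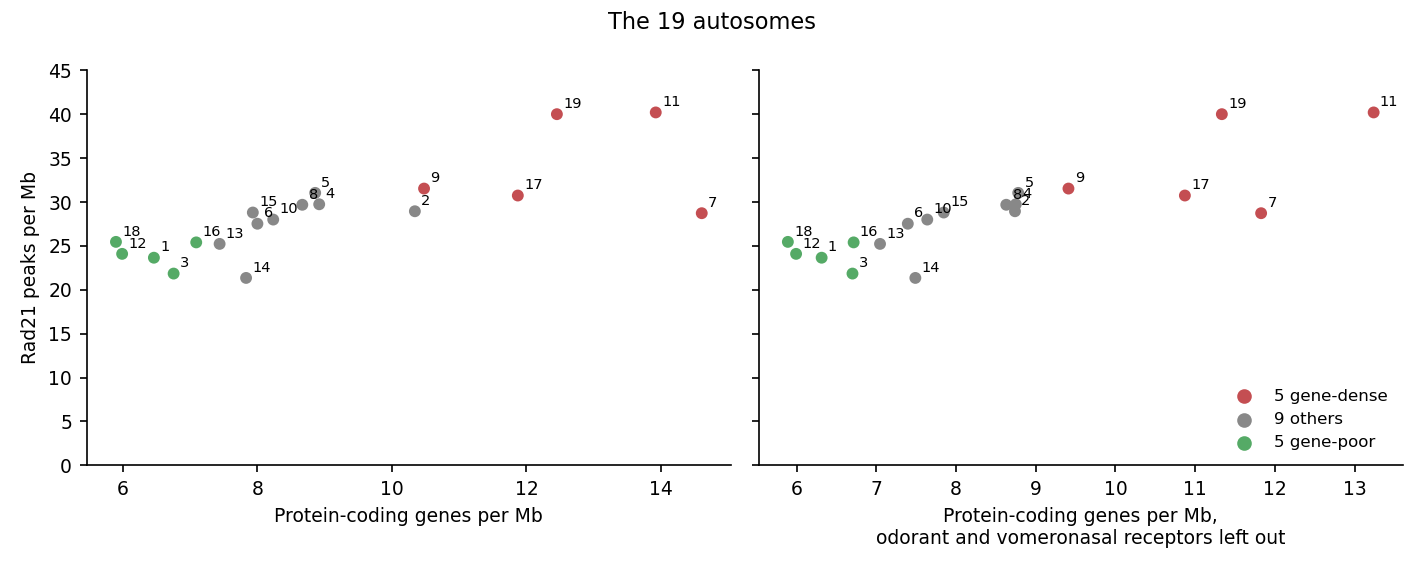
Rad21 peaks per Mb (vertical axis) against protein-coding genes per Mb (horizontal axis) for each autosome, labelled by number, with all coding genes (left) and without odorant and vomeronasal receptor genes (right). Chromosomes 11 and 19 are highest at about 40 peaks per Mb, and chromosome 7 lies below the trend.

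Chromosome 11 had the most peaks per Mb (40.2) and chromosome 14 the fewest (21.4). Chromosome 7 was farthest out of order, with the most genes per Mb (14.6) but rank 10 by peak density (28.7 per Mb). Chromosome 14 ranked 13 by genes and 19 by peaks, and chromosome 18 ranked 19 by genes and 13 by peaks. Without the autosomes farthest from the median gene density (7 and 11), rho was 0.863 and r was 0.834. When odorant and vomeronasal receptors were left out of the gene counts, chromosome 7 fell to 11.8 genes per Mb, and rho over the 19 autosomes was 0.846.

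Peaks of gene-dense and gene-poor autosomes had near medians of width and fold. The median width was 423 and 416 bp, the median fold 4.85 and 4.99 and the median pileup 47 and 44, respectively, and a fold of at least 10 was reached by 21.6% (21 to 22.2%) and 22.0% (21.4 to 22.7%). The promoter share was 27.7% (27 to 28.3%) on gene-dense and 21.5% (20.9 to 22.2%) on gene-poor autosomes. The share of coding genes with a promoter summit was 51.3% (50.1 to 52.5%) on gene-dense and 55.7% (54.2 to 57.2%) on gene-poor autosomes. This order turned when odorant and vomeronasal receptor genes were left out, with 57.8% (56.5 to 59.0%) and 56.7% (55.2 to 58.2%), intervals that overlap. Intergenic sequence held 20.7 peaks per Mb on gene-dense and 15 on gene-poor autosomes, and introns held 31.1 and 26.2. Promoter sequence had the opposite order, with 167 peaks per Mb on gene-dense and 175 on gene-poor autosomes. The median spacing was 10789 and 12783 bp.

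In bins of 1 Mb with like numbers of genes, the groups of autosomes were close from 6 to 40 genes and not in the lowest and highest classes. Bins without a protein-coding gene had 3.8 peaks per Mb on gene-dense and 2.6 on gene-poor autosomes, and bins of 1 to 5 genes had 17.3 and 14. With 6 to 10 genes the values were 34.9 and 33.8, with 11 to 20 genes 42 and 45, and with 21 to 40 genes 54.9 and 54.4. Bins of 41 or more genes had 62.6 on gene-dense autosomes (26 bins), against 10 in the only such bin on gene-poor autosomes. Over all autosomes, summits outside promoters went from 2.88 per Mb in bins without genes to 35 with 21 to 40 genes and were at 32.4 with 41 or more (43 bins), where all peaks were at 58.9. Over all 2401 bins, peaks per Mb had a rank correlation of 0.704 with genes per Mb and 0.836 with GC content. Bins of 21 or more genes in which odorant and vomeronasal receptors were at least as many as other genes (33 bins) had 11.9 peaks per Mb, and the other 233 bins of such gene number had 61.9. The part of keeping only uniquely placed reads in the low value of the receptor bins was not tested.

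GC content rose at the summit. In bins of 50 bp it was 54.3% at the summit and 45.2% at 2000 bp on either side. Promoter summits had 63.2% GC and 7.41 CpG per 100 bp, other summits 51.4% and 1.80. At 500 bp from the summit the GC content of summits outside promoters was already 45.1%, whereas that of promoter summits was 52.3 to 52.6%.

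The core word of the CTCF motif was 6.65 times as frequent at summits as in windows placed regularly over the genome, and the NRF1 word, from 119 summit windows, 6.32 times. The CTCF core was found within 100 bp of 7052 summits (10.5%, 10.3 to 10.7%), in 2.36% of 124278 windows centred 1000 bp from the summits that overlapped no peak, and in 1.58% of 239359 windows placed every 10 kb over the autosomes. The share was 5.92% in the lowest and 19.9% in the highest of the 10 classes by fold. Peaks with the word had a median fold of 7.63 and 74 fragments, and peaks without it 4.74 and 43. The word is strict, and other forms of the motif are not counted. In the 2629 peaks of fold at least 10 with 1 match, the fourth base before the word was C in 86.2% and the fifth was C in 66.6%, and base 8 of the word, which was free in the search, was G in 60.7%.

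**Figure D5:**
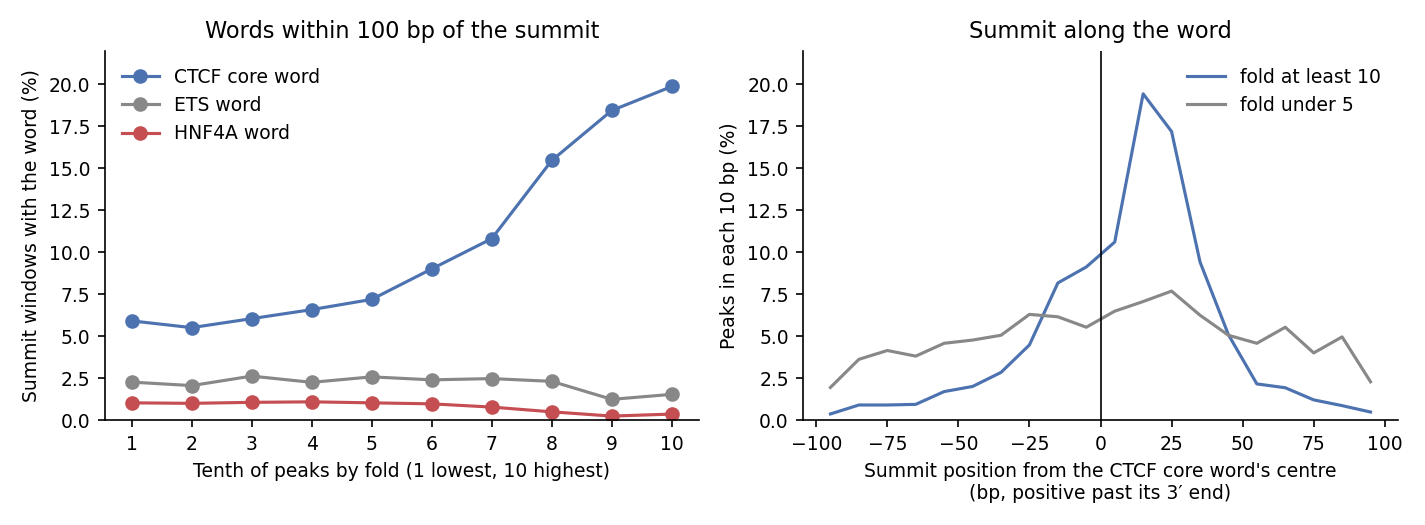
Left, the share (%) of summit windows with the CTCF core, ETS and HNF4A words in each of the 10 classes by fold. Right, the position of the summit from the centre of a single CTCF core word (bp, positive past its 3′ end) as the share (%) of peaks per 10 bp, for folds of at least 10 and under 5: the stronger peaks are highest, at 19.4%, from 10 to 20 bp past the centre.

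Summits lay more often past the centre of the word than before it. With the word read 5′ to 3′ on its own strand, the summit was past the word's centre in 60.4% of 6789 peaks with a single match (59.2 to 61.5%). This share was 53.4% at folds under 5 (51.2 to 55.5%), 67.6% at folds of at least 10 (65.8 to 69.4%) and 73.8% at folds of at least 20 (70.1 to 77.3%). The median offset was 6 bp, 14 bp and 16 bp in the same order. Between successive word-bearing peaks of fold at least 10 (2610 pairs), 25.1% had words facing each other, 25.2% facing apart and 49.7% in the same direction. In the 41 pairs under 10 kb apart, 12.2% faced each other (5.32 to 25.5%) and 29.3% faced apart (17.6 to 44.5%), and in the 1765 pairs 200 kb or more apart these shares were 25.7% (23.7 to 27.8%) and 23.4% (21.5 to 25.4%).

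Words of liver factors varied in their share at summits. The HNF4A word CAAAGTCCA was in 0.817% of summit windows (0.751 to 0.888%) and 0.257% of flanking windows, a ratio of 3.17, and its share was 1.04% in the lowest and 0.372% in the highest class by fold. Over the same classes the C/EBP word went from 9.77 to 8.40%, the STAT word from 5.70 to 5.59% and the SP/KLF and ETS words of promoters from 1.90 to 0.952% and from 2.28 to 1.55%. The FOXA word TGTTTAC (ratio 1.12), the C/EBP word TTGCNNAA (1.17) and the HNF1 word GTTAATNAT (1.20) were close to the flanks, the AP-1 word TGANTCA (0.982) and the STAT word TTCNNNGAA (0.912) were at or below them, and the nuclear receptor word AGGTCAAAG had a ratio of 1.52. Against the regular windows the ratios were 3.07 for HNF4A, 1.05 for FOXA, 1.01 for C/EBP, 0.901 for HNF1, 0.930 for AP-1, 0.759 for STAT and 1.76 for the nuclear receptor word. Words of promoters were more frequent at summits: CCGGAAG, bound by ETS factors, in 2.18% against 0.856% of flanks, GGGGCGGGG (SP/KLF) in 1.55% against 0.736%, and GCGCATGCG (NRF1) in 0.177% against 0.0531%. The ETS word was in 5.22% of promoter windows and 1.34% of intergenic ones. The YY1 word AAGATGGCG had a ratio of 4.28 to the flanks and 2.21 to the regular windows, the E-box CACGTG 1.25 and 1.73, and the CRE word TGACGTCA 1.77 and 2.06. The share of the YY1 word rose from 0.164% in the lowest to 0.773% in the highest class by fold. The flanks of a summit are richer in G and C than the genome, and the comparison was not matched for base composition.

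Without a list of words, 8-letter words in at least 300 summit windows were ranked by enrichment within 50 bp of summits over the flanks. The order was led by 3 that resemble the CTCF core, followed by words made only of G and C. GAGGGCGC was in 2.73% of windows, a ratio of 32.6, GGGGGCGC in 2.64% (24.3) and AGGTGGCG in 2.23% (23.9), either strand counted, and the last 2 fit inside the core word. These were followed by CGCCGCGC (21.9), CGGGCGCC (21.1) and CGCGCGGC (21), each in under 1% of windows. At folds of at least 5 the first 3 were also the highest, with ratios of 51.6, 38.9 and 42.4, and none of them was among the 12 highest words at folds under 5.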

How the data were processed

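Nuclei were isolated from female mouse liver and fixed with formaldehyde, and sonicated chromatin was immunoprecipitated with a Rad21 antibody. Bowtie2 was used by the authors for alignment to mm9, from which only uniquely placed reads went on. The deposited list, named as merged, is taken as MACS2 peaks of the pooled reads of the 3 libraries. The authors ran MACS2 with its defaults and removed blacklisted peaks and peaks made of duplicates alone. The paper describes merging replicates for its comparison of the sexes, where the merged female cohesin reads were down-sampled. Whether the list came from that reduced set is not stated. The deposited list gives each peak's coordinates and its fold enrichment, a ratio of summit pileup to local background. The deposited −log10 p and −log10 q values and a score derived from q come from the same caller. Whether an input was used is not given in the sources used here.

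Peaks were described in Python 3.11.15 with numpy 2.4.6, scipy 1.17.1, pandas 2.3.3 and statsmodels 0.14.6. No peak ended beyond the NCBIM37 (mm9) chromosomes. Summits were assigned to GENCODE vM1 features in the order promoter, coding exon, 5′ UTR, 3′ UTR, other exon, intron and intergenic. Densities and base shares leave out N. Words were counted on both strands in windows of 201 bp, and 8-letter words in windows of 101 bp, with at least 300 windows required (100 within classes of fold). With 1 pool, no test was made. The steps were tested on simulated data.

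The members and gene lists were chosen with earlier results of these data known. Named were the highest peak of each autosome, the 5 widest peaks, the 5 longest stretches that were mostly sequenced, the 5 densest windows of 100 kb, the top 6 words, and in each gene list up to 6 genes of highest fold and those without a peak. Other genes, such as Cebpa, Alb, Rad21 and Nipbl, were named after their values were seen. Alternatives were stricter q or fold, other promoter windows, gene sets and groups of autosomes. Rankings by pileup and gene counts without receptors were added after the data were seen. The CTCF list was only counted.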

Additional observations from a re-analysis of the deposited data

Results flagged for a closer look

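Signal was also present outside the autosomes. The Rad21 list held 1419 peaks on the X chromosome, 8.75 per Mb against 28.1 per Mb on autosomes. X peaks had medians of 372 bp in width and 5.73 in fold. Mitochondrial DNA held 9 peaks, at a median fold of 3.28, and the Y chromosome 0. These peaks were in no comparison above. No sample without antibody was analysed here, so there is no level to set them against.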

How the results depend on the processing

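With only peaks of −log10 q of at least 10, there were 43161 peaks, with a median width of 481 bp, a median spacing of 19960 bp, 25% promoter and 37.9% intergenic summits, 43.0% of coding genes with a promoter summit and the CTCF core word in 13.3% of windows. With only folds of at least 5, these values were 32698 peaks, 488 bp, 30146 bp, 21.2%, 41.7%, 30.5% and 14.9%, and the ratio of gene-dense to gene-poor autosomes was 1.36. A promoter window of 2.5 kb, which covered 9.31% of bases, gave 31.4% promoter summits and 58.8% of coding genes. Any overlap of the peak gave 25.6% in promoters, and 34.8% of whole peaks lay outside genes and promoters. With protein-coding genes only, 38.3% of summits were intergenic. With summits within 1 kb joined, the median spacing was 13457 bp. With genes of every biotype the ratio was 1.29 and the rank correlation over autosomes 0.644, and with 3 against 3 autosomes the ratio was 1.45. Within 50 bp of the summit the core word was in 7.68% of windows. Leaving receptor genes out of the gene counts gave the same groups of autosomes and a ratio of 1.41, but the gene-dense minus gene-poor share of coding genes with a promoter summit went from -4.40 to 1.07 percentage points. The causes of these shifts were not tested beyond what each choice removes or adds.

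No paired analysis was possible because the list is 1 pool of the libraries. Counting error weighs most on the weak peaks, and sequence outside the list is not shown to be unbound.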
